A study of Mustela putorius furo with 2 samples.

Results

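The VEGF and TIE signalling genes described here were 8 genes chosen by name: the VEGF ligands VEGFA and PGF, the VEGF receptors FLT1 and KDR, the angiopoietins ANGPT1 and ANGPT2, and the receptors TEK and TIE1. All 8 were present among the 21317 genes with at least 1 unique molecular identifier (UMI) in the matrix. They were measured in single cells from the dorsal part of the cortex of WT ferret pups, taken at postnatal day 3 and read by RNA sequencing. The study has 1 group, made of 2 replicate samples, with no treated or mutant arm, and the labels do not say whether the replicates are separate animals. The tissue was dissociated with papain and captured in droplets on the Chromium platform. The comparisons are therefore between classes of cells within the same samples, and ask which cells held the ligands and which held the receptors.

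In developing brain, VEGFA made outside the vessel wall acts on KDR, the main signalling receptor of endothelial cells, and guides the sprouting of new vessels. FLT1 binds VEGFA and PGF and also serves as a decoy that limits how much VEGFA reaches KDR. TEK is the angiopoietin receptor of endothelial cells, TIE1 is its partner receptor, ANGPT1 activates TEK, and ANGPT2 can oppose or mimic ANGPT1 depending on the context. Radial glia, the progenitors whose fibres cross the cortical wall, and astrocytes contact the growing vessels, and pericytes, which are mural cells, wrap them.

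The matrix held 2 libraries, recognised by the barcode suffix and called A and B. After filtering, 9780 cells of library A and 4993 cells of library B were kept, with medians of 3602.5 and 3068 UMIs per cell, and 21 barcode sequences occurred in both libraries. Cells were placed in classes by marker UMIs that include none of the 8 genes. CLDN5, a tight junction gene of brain endothelium, had at least 1 UMI in 241 cells of library A (2.46%) and 576 cells of library B (11.5%), so the libraries differed in their share of these cells. Each of the 14 other endothelial genes checked had UMIs in these cells, and at least 2 of those genes were found in 608 of the 817 cells (74.4%). That share was 33.8% of cells with 1 CLDN5 UMI, 72.7% with 2 and 93.6% with 3 or more, against 0.974% of cells with none. Many CLDN5-positive cells also passed another gate: 226 of the 817 passed the mural gate and 421 the astroglia gate. The astroglia gate was broad. Its marker FABP7 had a UMI in 99.2% of cells with 3 or more CLDN5 UMIs and in 98.6% of cells without CLDN5. HOPX, another of its markers, had a UMI in 65.9% and 18.7% of these cells. How much of the overlap came from the breadth of the gate, attached cells, doublets or free RNA was not tested. The levels below are for all CLDN5-positive cells unless stated, and the tests use the 42 cells of library A and 99 cells of library B that passed no other gate. The neural classes were astroglia, gliogenic progenitors, oligodendrocyte precursors, intermediate progenitors, excitatory neurons and inhibitory neurons. Levels are CPM, the UMIs of a gene scaled to a fixed total of UMIs per class, with exact Poisson 95% intervals that cover counting error only. Fitted log2 fold changes weight each class equally, so they can differ in size from ratios of pooled CPM.

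All 4 receptor genes were highest in CLDN5-positive cells, with much lower levels in every neural class. FLT1 had 214 CPM in library A (95% interval 185 to 245) and 272 CPM in library B (247 to 299) in CLDN5-positive cells, against 3.5 and 3.15 CPM in the pooled neural cells. KDR had 164 and 221 CPM in CLDN5-positive cells of libraries A and B, against 0.751 and 0.810 CPM in neural cells. For both genes these were large gaps beside the spread between the libraries. TIE1 had 77.7 and 103 CPM in CLDN5-positive cells, against 0.536 and 0.810 CPM in neural cells. TEK had 34.5 and 65.9 CPM in CLDN5-positive cells, against 0.930 and 0.630 CPM in neural cells. The ratio of the CLDN5-positive to the neural level was 60.9 and 86.4 for FLT1, 218 and 273 for KDR, 145 and 128 for TIE1, and 37.1 and 105 for TEK in libraries A and B. For each receptor the lowest CLDN5-positive value lay above the highest neural value.

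**Figure D1:**
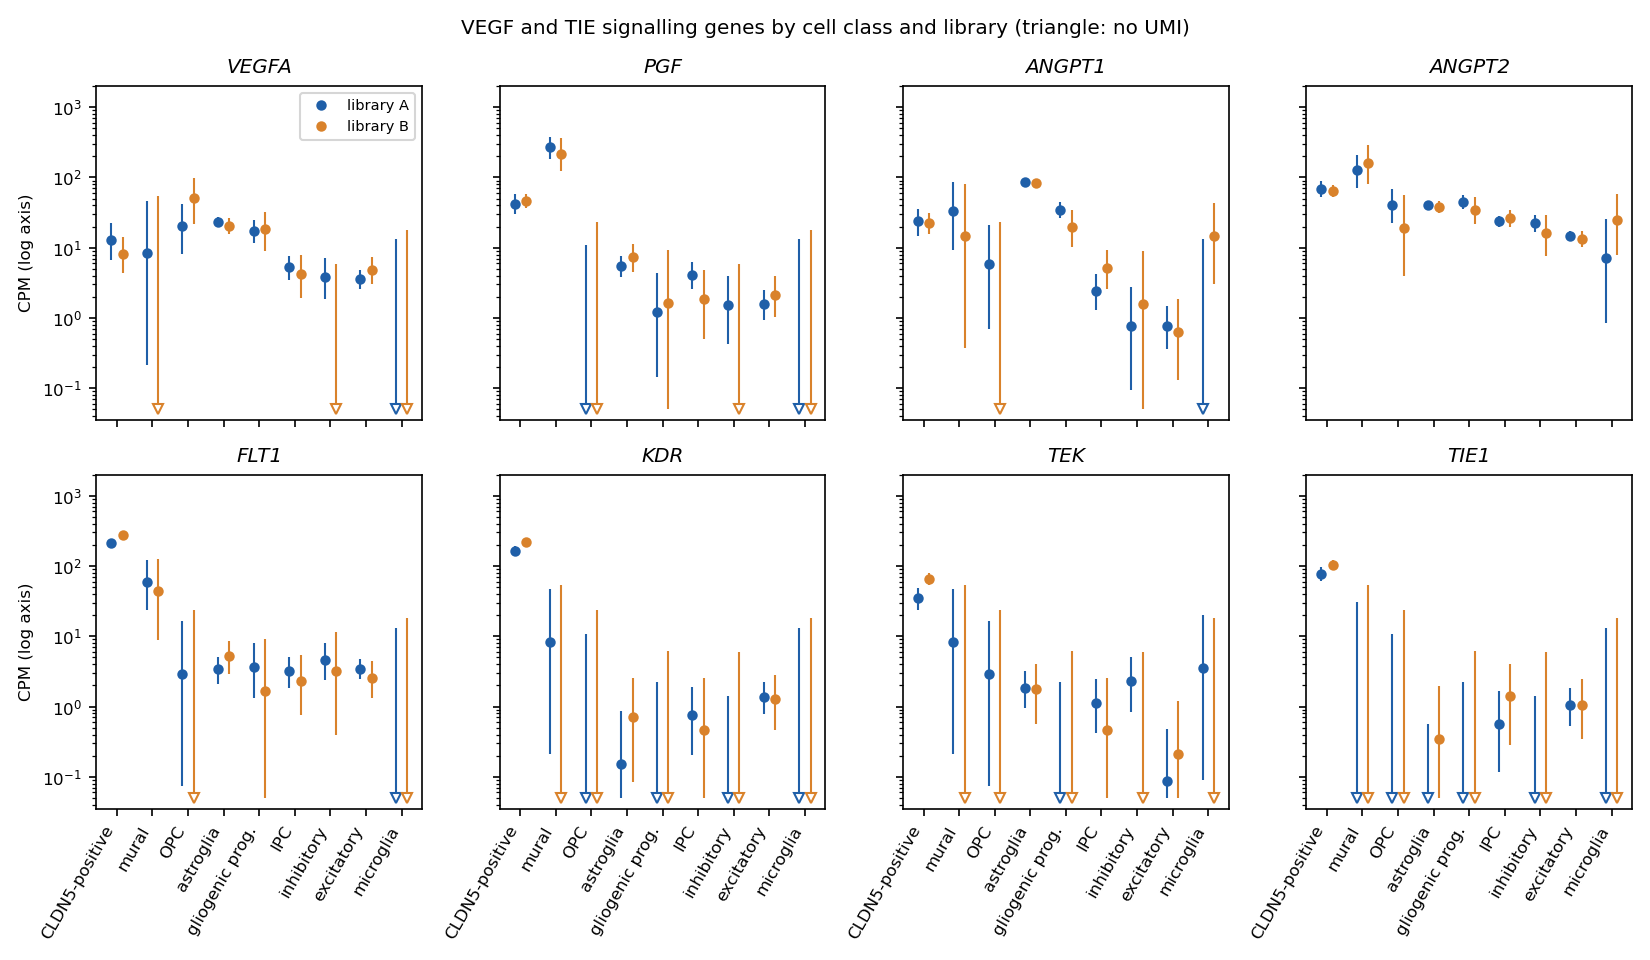
CPM (log axis) of each of the 8 genes in the cell classes of library A (blue) and library B (orange), with exact Poisson 95% intervals; open triangles at the foot of the axis mark classes with no UMI, and mural cells are those with 3 or more mural markers and no CLDN5 UMI. OPC is oligodendrocyte precursor and IPC is intermediate progenitor. The 4 receptors stand highest in CLDN5-positive cells, PGF in mural cells and ANGPT1 in astroglia.

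Across the sums of 8 classes in 2 libraries, 6 of the 8 genes were higher in CLDN5-positive than in neural cells and 0 were lower, by the quasi-likelihood test of edgeR, with p-values adjusted by Benjamini-Hochberg over all 12872 genes tested. Of all genes tested, 9.7% were called higher and 5.19% lower. The low-count filter keeps a gene that is high enough in the sums of a single class. FLT1, KDR, TIE1, TEK and PGF were scarce in every neural class and could pass it through the CLDN5-positive sums. The count of 6 is therefore not independent of the filter. Without the filter 6 of the 8 genes were also higher and 0 lower, where 1261 of 20941 genes tested were called higher and 653 lower. FLT1 was 6.73 higher on the log2 scale (SE 0.31, edgeR adjusted p = 6.04e-37). KDR (edgeR adjusted p = 1.44e-32), TIE1 (edgeR adjusted p = 8.95e-24) and TEK (edgeR adjusted p = 4.66e-12) were also called. Their fitted log2 fold changes, 10.08, 9.50 and 6.53, depend on the prior count because several neural classes had no UMI of these genes, so the pooled ratios above are the better guide to size. PGF was 4.35 higher (SE 0.96, edgeR adjusted p = 0.000271) and ANGPT2 was 1.24 higher (SE 0.39, edgeR adjusted p = 0.0177). ANGPT1 had a log2 fold change of 1.15 (SE 0.89) and VEGFA one of -0.68 (SE 1.04), and neither passed the test (edgeR adjusted p = 0.468 and 0.764). The PGF call rested on 1 UMI in library A and 8 UMIs in library B in the tested cells. The ANGPT2 call was lost when every cell was thinned to 1500 UMIs (1.10, edgeR adjusted p = 0.218). ANGPT1 was called higher under 3 of 12 alternatives: with all CLDN5-positive cells (2.06, edgeR adjusted p = 7.74e-07), with revised gates (1.26, edgeR adjusted p = 0.0297) and with these and no mural marker (1.98, edgeR adjusted p = 0.0403). Its pooled level was not higher: all CLDN5-positive cells had 23.7 and 22.2 CPM, against 22.7 and 23.7 CPM in neural cells, and those with 3 or more CLDN5 UMIs had 9.52 and 16.3 CPM.

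The receptor levels followed the number of CLDN5 UMIs in a cell. FLT1 had 3.40 CPM in library A and 4.22 CPM in library B in cells without CLDN5, 28.5 and 68.5 CPM with 1 CLDN5 UMI, 151 and 111 CPM with 2, and 412 and 390 CPM with 3 or more. KDR had 1.08 and 1.44 CPM without CLDN5, 21.4 and 44.2 CPM with 1 UMI, 105 and 166 CPM with 2, and 319 and 311 CPM with 3 or more. For FLT1 and KDR the intervals of the libraries did not overlap over all CLDN5-positive cells and did overlap among cells with 3 or more CLDN5 UMIs. TIE1 had 11.9 and 8.84 CPM in cells with 1 CLDN5 UMI, just inside the gate, against 0.538 and 1.04 CPM just outside it, and 152 and 150 CPM at 3 or more. TEK had 2.38 and 8.84 CPM with 1 CLDN5 UMI, against 0.856 and 0.751 CPM in cells without, and 73.8 and 92.8 CPM at 3 or more. With 2 CLDN5 UMIs, TEK had no UMI in the 22 cells of library A and 62.3 CPM in library B.

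**Figure D2:**
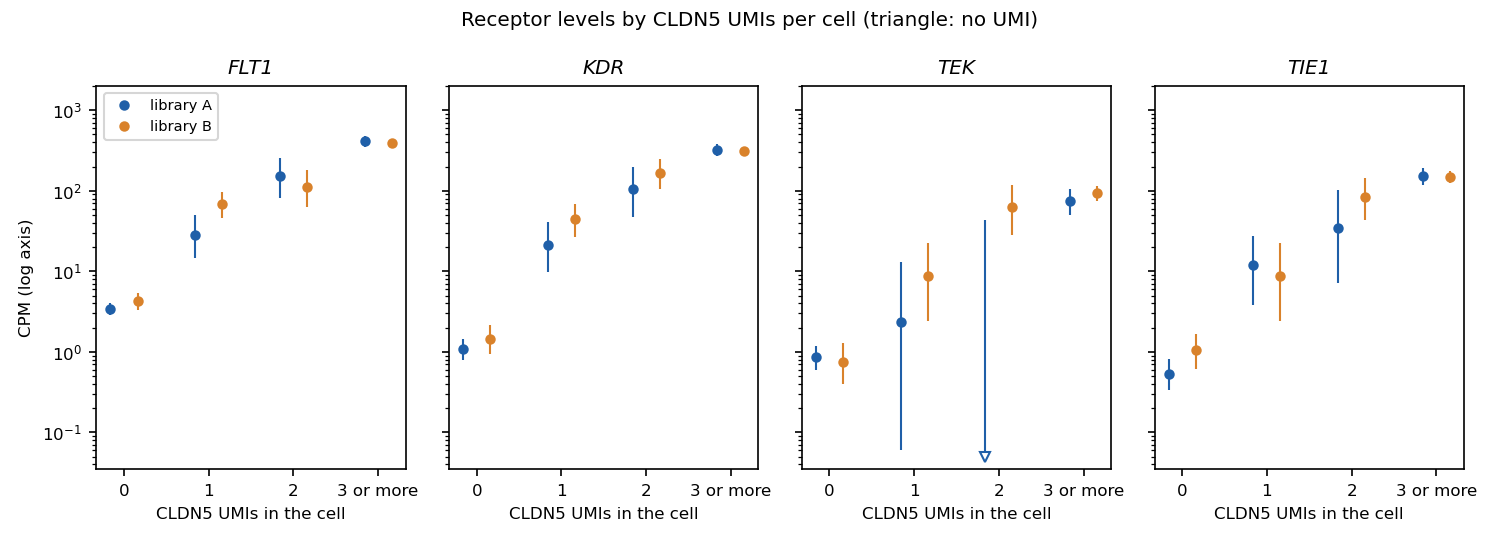
CPM (log axis) of the 4 receptor genes by the number of CLDN5 UMIs in the cell, for library A (blue) and library B (orange), with exact Poisson 95% intervals; the open triangle marks a bin with no UMI. Each receptor is higher in cells with 3 or more CLDN5 UMIs than in cells with 0 or 1; FLT1 reaches 412 and 390 CPM.

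Single cells gave a sparser picture of the receptors. FLT1 had a UMI in 35.3% of CLDN5-positive cells of library A and 42.4% of library B, against 1.19% and 0.812% of excitatory neurons. After thinning every cell to 1500 UMIs these shares were 23.2% and 31.8% of CLDN5-positive cells, against 0.457% and 0.474% of excitatory neurons. Median depths were 2663 and 2083.5 UMIs in CLDN5-positive cells and 3285 and 2879 UMIs in excitatory neurons. At least 1 of the 4 receptors was found in 121 CLDN5-positive cells of library A (50.2%) and 385 of library B (66.8%), and at least 2 in 74 (30.7%) and 187 (32.5%). Among excitatory neurons, 68 cells (2.07%) and 23 cells (1.56%) had 1 receptor, and 0 had 2 or more in either library. In cells with 3 or more CLDN5 UMIs, all 4 receptors were found together in 8 cells of library A (6.67%) and 13 of library B (3.44%). In these cells FLT1 and KDR were often found together: 46 of the 64 FLT1-positive cells of library A (71.9%) and 103 of the 205 of library B (50.2%) also had KDR, against 30.4% and 38.7% of FLT1-negative cells. FLT1-positive and FLT1-negative cells were not matched for depth.

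Small receptor levels in neurons were compared with those of other endothelial genes. In excitatory neurons FLT1 stood at 0.841% and 0.653% of its level in cells with 3 or more CLDN5 UMIs, KDR at 0.434% and 0.409%, and TIE1 at 0.682% and 0.707%. PECAM1 and CDH5, junction genes of endothelium, stood at 0.0431% and 0.0346% in library A and at 0.0721% and 0% in library B. ERG, an endothelial transcription factor, stood at 0.169% and 0.235%, ESAM, another junction gene, at 0.243% and 0%, SOX18 at 0.0840% and 0.0562%, and TEK at 0.117% and 0.228%. The neuronal levels rested on 40 and 12 UMIs for FLT1, 16 and 6 for KDR, and 12 and 5 for TIE1, and the part of free RNA in them was not tested. TEK had 1 UMI in excitatory neurons of each library. In microglia, FLT1, KDR and TIE1 had no UMI in either library, which with 72 and 63 cells allows a share of cells with a UMI of up to 4.17% and 4.76% by the limit of 3 counts, and of up to 4.99% and 5.69% by the exact Clopper-Pearson 95% interval.

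VEGFA, the ligand of FLT1 and KDR, was higher in the glial than in the neuronal classes. It had 23.2 CPM (19.7 to 27.2) in astroglia of library A and 20.6 CPM (15.7 to 26.6) of library B, against 4.06 and 4.27 CPM in the pooled neuronal classes, that is intermediate progenitors with excitatory and inhibitory neurons. Gliogenic progenitors had 17.5 and 18.2 CPM and oligodendrocyte precursors 20.4 and 50.5 CPM, with intervals that overlapped those of astroglia within each library. All CLDN5-positive cells had 12.9 and 8.24 CPM of VEGFA, and those with 3 or more CLDN5 UMIs had 2.38 and 6.12 CPM, from 1 and 6 UMIs. Microglia had no VEGFA UMI.

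ANGPT1, the ligand that activates TEK, was largely a gene of astroglia among the neural classes. It had 85.0 CPM (78.1 to 92.4) in astroglia of library A and 82.6 CPM (72.4 to 93.8) of library B, against 1.23 and 2.0 CPM in the neuronal classes. A UMI of ANGPT1 was found in 29.3% and 23.4% of astroglia, against 0.399% and 0.492% of neuronal cells, and after thinning in 10.9% and 10.7% of astroglia, against 0.171% and 0.224% of neuronal cells. Gliogenic progenitors had 34.5 and 19.9 CPM, below astroglia in both libraries with intervals that did not overlap. Oligodendrocyte precursors had 5.83 CPM from 2 UMIs in library A and no UMI in library B.

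ANGPT2 was found in all the neural classes and in vascular cells. It had 69.0 CPM (53.2 to 88.1) and 64.0 CPM (52.2 to 77.8) in CLDN5-positive cells of libraries A and B, against 25.4 and 23.7 CPM in pooled neural cells. Among neural classes it had 14.8 and 13.4 CPM in excitatory neurons, 23.8 and 26.4 CPM in intermediate progenitors, 45.3 and 34.8 CPM in gliogenic progenitors, and 40.7 and 38.1 CPM in astroglia. Its level in excitatory neurons was 17.8% and 16.6% of that in cells with 3 or more CLDN5 UMIs, above the share of each receptor and junction gene given above. The intervals of astroglia, gliogenic progenitors and oligodendrocyte precursors overlapped in each library.

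PGF was scarce in neural cells, with 2.93 and 3.24 CPM, against 42.1 and 46.9 CPM in CLDN5-positive cells. Astroglia had 5.54 and 7.35 CPM, against 2.26 and 1.87 CPM in the neuronal classes. Cells with 3 or more CLDN5 UMIs and no mural marker had 61.5 CPM of PGF (26.6 to 121) in library A, from 8 UMIs. In library B such cells had 22.4 CPM (7.28 to 52.3), from 5 UMIs, so the intervals of the libraries overlapped. All cells with 3 or more CLDN5 UMIs had 59.5 and 63.2 CPM. The summed level of the 10 mural markers was 436 and 595 CPM in all CLDN5-positive cells, with all 10 present. The part of attached mural cells in the PGF level was not tested beyond these values.

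**Figure D3:**
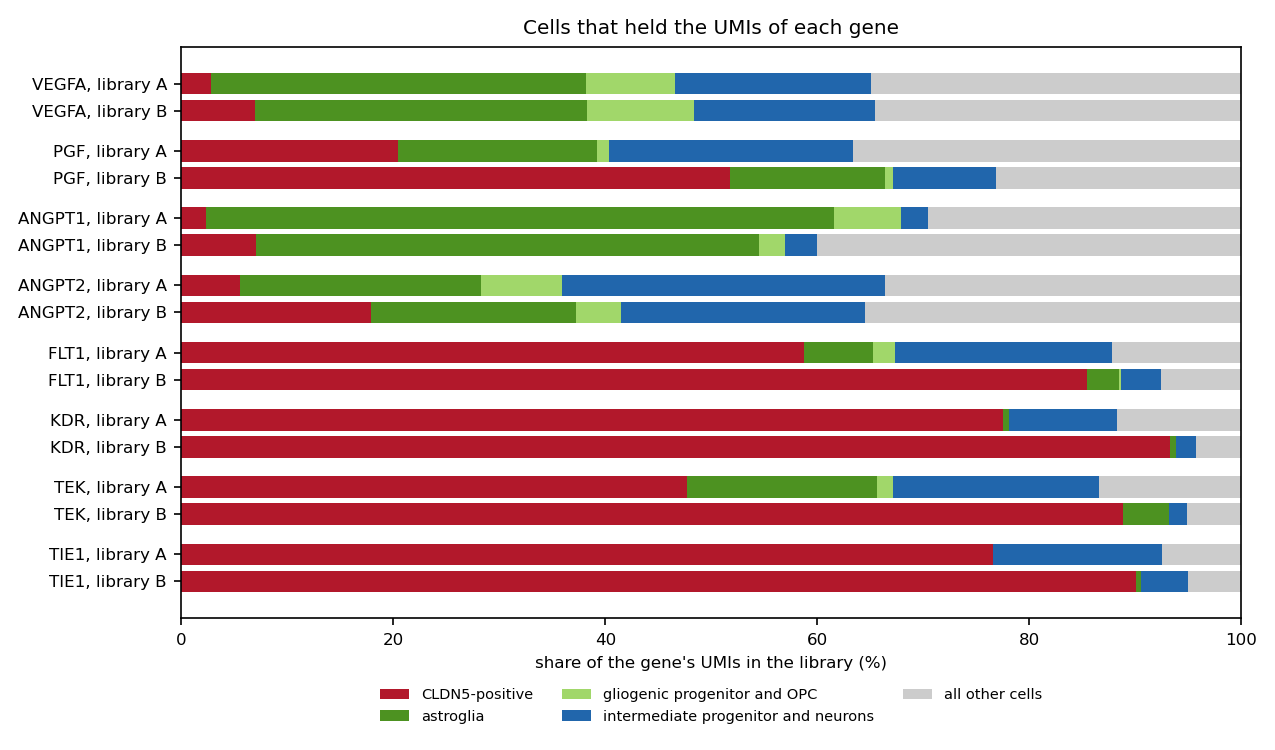
Share of all UMIs of each gene in its library (%) that lay in CLDN5-positive cells, astroglia, gliogenic progenitors with oligodendrocyte precursors (OPC), intermediate progenitors with neurons, and all other cells, for libraries A and B. CLDN5-positive cells held 77.6% and 93.3% of KDR UMIs, and astroglia 59.2% and 47.5% of ANGPT1 UMIs.

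The UMIs of each gene were also counted over all cells, without scaling. CLDN5-positive cells, 2.46% and 11.5% of the cells, held 58.8% and 85.5% of all FLT1 UMIs in libraries A and B, 77.6% and 93.3% of KDR, 76.6% and 90.1% of TIE1, and 47.8% and 88.9% of TEK. They held 2.81% and 6.91% of VEGFA UMIs and 2.36% and 7.04% of ANGPT1 UMIs. Astroglia held 35.4% and 31.4% of VEGFA, 59.2% and 47.5% of ANGPT1, and 22.7% and 19.3% of ANGPT2 UMIs. PGF UMIs lay in CLDN5-positive cells for 20.4% in library A and 51.7% in library B. The receptor shares were larger in library B, which also had the larger share of CLDN5-positive cells.

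Set against the mean of the 3 neuronal classes, astroglia were higher for 4 of the 8 genes and lower for 0, where 32.9% of all genes tested were called higher and 32.1% lower. All 4 ligands made up this count. ANGPT1 was 5.84 higher on the log2 scale (SE 0.19, edgeR adjusted p = 1.70e-51) and VEGFA 2.38 higher (SE 0.22, edgeR adjusted p = 2.38e-18). PGF was 1.52 higher (SE 0.40, edgeR adjusted p = 0.000487) and ANGPT2 0.93 higher (SE 0.14, edgeR adjusted p = 3.12e-09). As plain ratios of CPM, ANGPT1 was 69.0 and 41.3 times, VEGFA 5.72 and 4.84 times, PGF 2.45 and 3.93 times, and ANGPT2 2.23 and 2.20 times as high in astroglia as in the pooled neuronal classes of libraries A and B. TEK had 1.85 and 1.75 CPM in astroglia, against 0.668 and 0.267 CPM in the neuronal classes, and its log2 fold change of 1.34 (SE 0.63) did not pass (edgeR adjusted p = 0.0553), though it passed under 7 of 12 alternatives. Those TEK values rested on 12 and 5 UMIs in astroglia and 13 and 2 UMIs in neuronal cells.

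Within astroglia the 2 angiopoietins were split in opposite ways by cell division. These splits were chosen after the data were seen and are given without a test. Dividing astroglia, those with UMIs of at least 2 of 5 mitotic genes, had 72.6 and 68.6 CPM of ANGPT2, against 27.5 and 26.6 CPM in astroglia that were not dividing. ANGPT1 had 61.6 and 52.1 CPM in dividing astroglia, against 94.8 and 94.2 CPM in the others. For both genes the intervals of dividing and other cells did not overlap in either library, while VEGFA, at 17.2 and 16.5 CPM against 25.7 and 22.2 CPM, had overlapping intervals. Dividing astroglia were deeper, with medians of 6611.5 and 5720 UMIs, against 4765 and 4106 UMIs in the others. After thinning, ANGPT2 was found in 8.63% and 8.15% of dividing astroglia, against 3.85% and 4.47% of the others, and ANGPT1 in 7.91% and 5.93%, against 11.8% and 12%.

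**Figure D4:**
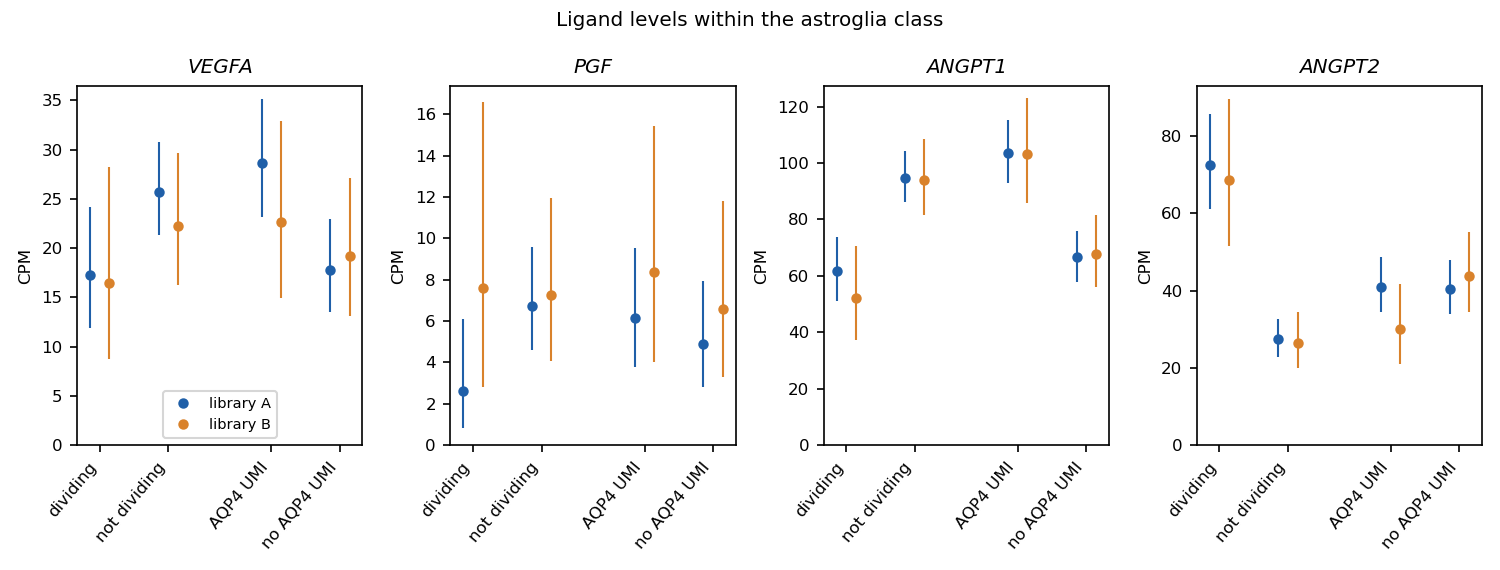
CPM of the 4 ligands in astroglia with and without signs of division, and with and without a UMI of AQP4, for library A (blue) and library B (orange), with exact Poisson 95% intervals. ANGPT2 is higher in dividing astroglia (72.6 and 68.6 CPM), and ANGPT1 is higher in astroglia with AQP4 (104 and 103 CPM).

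AQP4, the water channel of astrocytes, divided the class as well. Astroglia with an AQP4 UMI had 104 and 103 CPM of ANGPT1, against 66.5 and 67.9 CPM in astroglia without, and the intervals did not overlap. VEGFA had 28.7 and 22.6 CPM with AQP4, against 17.8 and 19.2 CPM without, which did not overlap in library A and overlapped in library B. ANGPT2 had 41.0 and 30.2 CPM with AQP4, against 40.5 and 43.8 CPM without, with overlapping intervals. AQP4 is a gene of the astroglia gate, and cells with it had medians of 5646 and 5006 UMIs, against 4567 and 3872 UMIs without. Within astroglial cells, ANGPT1 was found in 27.2% of VEGFA-positive cells, against 29.6% of VEGFA-negative cells, in library A, and in 38.2%, against 22.0%, in library B. The library B share came from 21 of 55 cells. VEGFA-positive cells were deeper, with medians of 5754 and 5081 UMIs, against 4965 and 4211 UMIs, and these shares were not matched for depth.

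Oligodendrocyte precursors differed from astroglia in ANGPT1. It was 4.45 lower on the log2 scale in precursors (SE 0.60, edgeR adjusted p = 9.40e-10), the only 1 of the 8 genes called, against 9.12% of all genes called higher and 10.5% lower. VEGFA had a log2 fold change of 0.37 (SE 0.45) and ANGPT2 one of -0.31 (SE 0.38), and neither passed (edgeR adjusted p = 0.666 and 0.675). With 61 and 27 precursors the VEGFA values rested on 7 and 8 UMIs. Of the other VEGF ligands, VEGFC, which acts mainly on FLT4, was 1.23 lower on the log2 scale in precursors (SE 0.45, edgeR adjusted p = 0.0389) and VEGFB, a ligand of FLT1, 1.08 lower (SE 0.27, edgeR adjusted p = 0.00116). The VEGFC values rested on 5 and 4 UMIs in precursors, and its call was lost under 3 of 13 alternatives.

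Between inhibitory and excitatory neurons, TEK was the 1 of the 8 genes called, 3.37 higher in inhibitory neurons (SE 1.19, edgeR adjusted p = 0.0214), while 15.1% of all genes were called higher and 14.7% lower. That call rested on 6 UMIs in inhibitory neurons, against 1 UMI in excitatory neurons, of library A, and on 0 UMIs, against 1 UMI, in library B, where the value on its own was -0.36. VEGFA had 3.86 CPM in inhibitory neurons of library A and no UMI in those of library B, against 3.55 and 4.88 CPM in excitatory neurons (edgeR adjusted p = 0.591). KDR had no UMI in inhibitory neurons of either library, against 1.39 and 1.27 CPM in excitatory neurons, and did not pass (edgeR adjusted p = 0.0538), though it passed under 4 of 12 alternatives (lowest edgeR adjusted p = 0.00285). The TEK call was lost under 2 of 12. With revised gates 2 of the 8 genes were called higher and 2 lower, and the 15.1% and 14.7% above are for the main gates. The VEGF co-receptors NRP1 and NRP2 differed between the neuron types in opposite directions. Inhibitory neurons had low and similar levels of both, and NRP2 was low in both neuron types. NRP1 had 5.79 and 8.0 CPM in inhibitory neurons, against 161 and 148 CPM in excitatory neurons (log2 fold change -4.74, SE 0.21, edgeR adjusted p = 1.24e-39). NRP2 had 5.02 and 8.0 CPM in inhibitory neurons, against 0.606 and 0.212 CPM in excitatory neurons (3.30, SE 0.68, edgeR adjusted p = 2.85e-05).

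Mural cells were too few for a test. The planned gate of 2 markers with no other gate passed left 8 cells in library A and 2 in library B, so cells with 3 or more of the 10 mural markers and no CLDN5 UMI were described instead, a choice made after the data were seen. There were 29 such cells in library A and 13 in library B, and their summed mural markers reached 4295 and 4634 CPM, with 9 and 10 of the 10 markers present. Of 4 measured fibroblast genes, 3 were present in these cells and DCN was at 0, and they summed to 1047 and 944 CPM, against 121 and 189 CPM in cells with 3 or more CLDN5 UMIs; their part in the levels below was not tested. PGF had 268 CPM (183 to 378) in these mural cells of library A and 218 CPM (122 to 359) of library B, with a UMI in 12 and 7 cells. The corresponding levels in cells with 3 or more CLDN5 UMIs were 59.5 and 63.2 CPM, so the intervals did not overlap. ANGPT2 had 126 CPM (70.3 to 207) and 160 CPM (79.8 to 286) in mural cells, against 83.3 and 80.6 CPM in cells with 3 or more CLDN5 UMIs, with overlapping intervals. ANGPT1 had 33.5 and 14.5 CPM in mural cells from 4 and 1 UMIs, and VEGFA had 1 and 0 UMIs. FLT1 had 58.6 and 43.6 CPM from 7 and 3 UMIs, KDR and TEK 1 UMI each in library A and none in library B, and TIE1 none. The 14 endothelial check genes summed to 435 and 363 CPM in these cells, with 12 and 9 genes present, against 4017 and 3842 CPM in cells with 3 or more CLDN5 UMIs; their part in the mural FLT1 value was not tested.

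ANGPT2 marks sprouting endothelium in mouse retina, so CLDN5-positive cells with and without an ANGPT2 UMI were compared. In the tested set of 10 and 7 ANGPT2-positive cells, against 32 and 92 ANGPT2-negative cells, 981 genes could be tested, and 0.408% were called higher and 0% lower by edgeR, with 46 genes at an unadjusted p under 0.05 and 0 called by DESeq2. Of the 8 genes only ANGPT2, FLT1 and KDR could be tested. ANGPT2 itself defined the split, so its own call, counted among the genes called higher, is no finding. FLT1 had a log2 fold change of -0.99 (SE 0.62) and KDR one of -0.34 (SE 0.62), and neither passed (edgeR adjusted p = 0.987 for each). Of the tip cell list, 1 of 5 tested genes was called, with a list median of -0.20 against 0.026 over all genes. That gene was CXCR4, a chemokine receptor of endothelial tip cells, 2.0 higher (SE 0.51, edgeR adjusted p = 0.0200). In the ANGPT2-positive cells it had 7 UMIs in 3 cells of library A and 10 UMIs in 6 cells of library B. The CXCR4 call was lost under 8 of 12 alternatives, over which its adjusted p ranged from 1.43e-05 to 1.0 in edgeR and DESeq2. With revised gates, added after the data were seen, 28 and 67 ANGPT2-positive cells could be set against 92 and 311 ANGPT2-negative cells. There CXCR4 was 1.5 higher (SE 0.26, edgeR adjusted p = 1.71e-05) and APLN, a peptide secreted by tip cells and singled out after its values were seen, 1.25 higher (SE 0.30, edgeR adjusted p = 0.0148). In those cells CXCR4 had 146 and 242 CPM with ANGPT2, against 31.1 and 98.0 CPM without. The values with ANGPT2 came from 19 UMIs in 4 cells of library A and 52 UMIs in 21 cells of library B. After thinning, CXCR4 was found in 10.7% and 19.4% of cells with ANGPT2, against 5.43% and 14.1% without. APLN had 230 and 93.0 CPM with ANGPT2, against 62.1 and 57.5 CPM without. In the tested set that passed no other gate APLN ran the other way, with 70.1 and 0 CPM from 2 and 0 UMIs, against 76.1 and 100 CPM from 6 and 19 UMIs. With revised gates 2 of 11 tested genes of the tip cell list were called, and the 0.408% above is for the main gates. DLL4, the Notch ligand of tip cells, had 38.3 and 46.5 CPM with ANGPT2, against 27.6 and 44.4 CPM without, in cells with 3 or more CLDN5 UMIs, and ESM1 had 2 and 1 UMIs, against 4 and 2 UMIs. Of the receptors in those cells, TEK had 38.3 and 69.7 CPM with ANGPT2, against 89.7 and 99.3 CPM without, and FLT1 had 422 and 442 CPM, against 407 and 375 CPM. ANGPT2-positive cells were deeper, with medians of 2847.5 and 2730 UMIs, against 2388.5 and 2042 UMIs, and CXCR4 is also a gene of migrating interneurons, with 484 and 626 CPM in the inhibitory neurons here. In the tested set the inhibitory neuron markers summed to 175 and 163 CPM in ANGPT2-positive cells, against 114 and 132 CPM in ANGPT2-negative cells. Among cells with 3 or more CLDN5 UMIs they summed to 99.7 and 65.1 CPM, against 93.2 and 165 CPM. There the 14 endothelial check genes summed to 4679 and 4454 CPM with ANGPT2, against 3719 and 3670 CPM without. The astroglia markers summed to 2654 and 4198 CPM, against 3974 and 4886 CPM. In the tested set the endothelial check genes summed to 2418 and 4454 CPM, against 3679 and 3352 CPM. The part of any of these markers in the CXCR4 and APLN values was not tested.

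The wider pathway was read from lists of genes. Their CPM values are for all CLDN5-positive cells and their fold changes for the tested cells that passed no other gate. A list gene scarce in neural cells could pass the low-count filter through its CLDN5-positive sums, so the counts of tested genes called higher are not independent of that filter. Among the other VEGF ligands and receptors, 4 of 6 tested genes were higher and 1 was lower in CLDN5-positive than in neural cells. Over all genes 9.7% were called higher and 5.19% lower. The list median was 2.71 on the log2 scale against -0.11 over all genes. FLT4, the receptor of VEGFC, had 10.8 and 20.3 CPM in CLDN5-positive cells, against 0.179 and 0.450 CPM in neural cells (edgeR adjusted p = 2.22e-05), though DESeq2 did not call it (adjusted p = 0.451). PLXND1, a semaphorin receptor of endothelium, had 67.9 and 83.7 CPM, against 1.43 and 1.71 CPM in neural cells (6.15, SE 0.56, edgeR adjusted p = 3.25e-17). NRP2 was 2.89 higher (SE 0.79, edgeR adjusted p = 0.00450). VEGFB was lower, with 49.6 and 37.4 CPM in CLDN5-positive cells, against 74.5 and 84.2 CPM in neural cells (-2.30, SE 0.51, edgeR adjusted p = 0.000310). VEGFD had no UMI and was treated as unmeasured.

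Among partners of the TIE receptors, 4 of 5 tested genes were higher in CLDN5-positive cells and 0 were lower, with a median of 2.25. The shares over all genes were 9.7% higher and 5.19% lower. PTPRB, the phosphatase that restrains TEK, had 222 and 300 CPM in CLDN5-positive cells, against 3.33 and 2.61 CPM in neural cells (6.60, SE 0.29, edgeR adjusted p = 1.07e-38). ITGA5, the integrin chain that binds ANGPT2, had 21.6 and 29.2 CPM, against 0.608 and 0.900 CPM in neural cells (edgeR adjusted p = 1.97e-08). FOXO1, the transcription factor that TEK signalling holds in check, was 2.25 higher (SE 0.51, edgeR adjusted p = 0.000430).

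Of 19 tested genes of the proteins that carry the VEGF receptor signal inside the cell, 3 were higher and 2 lower in CLDN5-positive cells, with a median of 0.35, where 9.7% of all genes were called higher and 5.19% lower. With revised gates 11 were higher and 2 lower, where 3088 of all 13145 genes tested were called higher and 1858 lower. NOS3, the nitric oxide synthase of endothelium, had 57.2 and 68.5 CPM, against 0.322 and 0.540 CPM in neural cells (edgeR adjusted p = 1.31e-11). CDC42, a small GTPase, was 0.59 higher (SE 0.13, edgeR adjusted p = 0.000348). PRKCA, a protein kinase, was 1.91 lower (SE 0.50, edgeR adjusted p = 0.00261), a call lost under 2 of 13 alternatives: -0.21 with revised gates and no mural marker (edgeR adjusted p = 0.764) and -1.27 with summed neural classes (edgeR adjusted p = 0.0927). SRC was 1.34 higher (edgeR adjusted p = 0.0418) and HRAS 0.84 lower on the log2 scale (edgeR adjusted p = 0.0150), and each lost its call under 5 of 13 alternatives.

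Tip cell and VEGF-induced genes were higher in CLDN5-positive cells for 11 of 16 tested genes and lower for 0, with a median of 4.80. Of all genes tested, 9.7% were called higher and 5.19% lower. COL4A1, a chain of basement membrane collagen, had 649 and 734 CPM, against 7.65 and 8.19 CPM in neural cells (6.30, SE 0.19, edgeR adjusted p = 3.28e-53). APLN had 63.6 and 47.6 CPM, against 0.322 and 0.360 CPM in neural cells (edgeR adjusted p = 8.21e-16). UNC5B, a guidance receptor of sprouting vessels, had 38.8 and 47.6 CPM, against 1.54 and 0.900 CPM in neural cells (edgeR adjusted p = 1.67e-10).

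Stalk, arterial and venous genes were higher for 10 of 12 tested and lower for 0, beside 9.7% and 5.19% of all genes, with a median of 3.18. GJA4, an arterial connexin, had 50.7 and 141 CPM in CLDN5-positive cells, against 0.107 and 0.0900 CPM in neural cells (edgeR adjusted p = 9.63e-20). KLF2, a factor induced by blood flow, had 89.5 and 124 CPM, against 0.465 and 0.630 CPM in neural cells (edgeR adjusted p = 4.38e-23). APLNR, the apelin receptor of venous endothelium, had 39.9 and 62.8 CPM, against 0.107 and 0.270 CPM in neural cells (edgeR adjusted p = 3.00e-10; DESeq2 adjusted p = 0.296).

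Hypoxia signalling drives VEGFA in many tissues, so its regulators and targets were listed too. In CLDN5-positive cells 1 of 8 regulators was higher and 0 were lower, beside 9.7% and 5.19% of all genes: EPAS1, the endothelial hypoxia factor, had 94.9 and 136 CPM, against 0.644 and 0.810 CPM in neural cells (7.20, SE 0.50, edgeR adjusted p = 4.11e-24). Of 19 hypoxia target genes tested, 6 were higher and 2 lower, with a median of 0.53. SLC2A1, which is also the glucose transporter of the blood-brain barrier, had 265 and 311 CPM, against 10.5 and 10.3 CPM in neural cells (5.13, SE 0.23, edgeR adjusted p = 4.79e-38). PLIN2, a lipid droplet protein, was 2.56 higher (SE 0.27, edgeR adjusted p = 4.42e-14), and P4HA2, a collagen prolyl hydroxylase, 3.18 higher (SE 0.93, edgeR adjusted p = 0.00864). BNIP3L fell by 0.82 (edgeR adjusted p = 0.00756) and ENO1, a glycolytic enzyme, fell by 0.53 (edgeR adjusted p = 0.0111) on the log2 scale, the ENO1 call being lost under 4 of 13 alternatives.

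**Figure D5:**
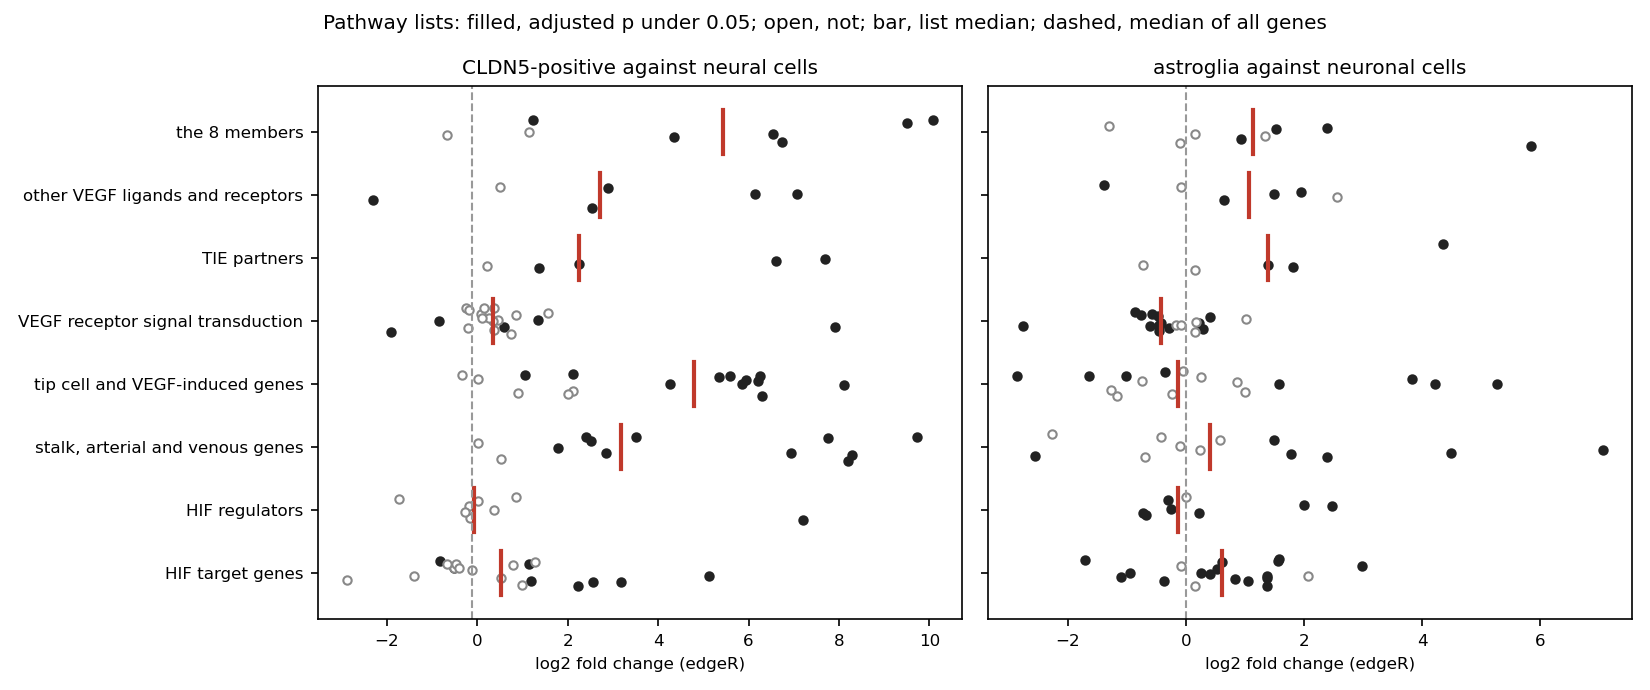
Log2 fold changes (edgeR) of the 8 genes and of the tested genes of 7 pathway lists, in CLDN5-positive against neural cells (left) and in astroglia against neuronal cells (right); filled points have an adjusted p under 0.05, red bars are list medians and the dashed line is the median of all genes. In CLDN5-positive cells the tip cell list has a median of 4.80, and in astroglia the hypoxia target list has a median of 0.61.

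The same lists were read in astroglia, where VEGFA and ANGPT1 were both higher than in the neuronal classes. Of 19 hypoxia target genes, 12 were higher and 4 lower in astroglia than in neuronal classes, with a median of 0.61 on the log2 scale against -0.0027 over all genes, where 32.9% and 32.1% of all genes were called. P4HA2 had 8.61 and 10.8 CPM in astroglia, against 1.49 and 1.87 CPM in neuronal classes (2.98, SE 0.39, edgeR adjusted p = 4.68e-11). BNIP3, a mitophagy receptor, had 219 and 235 CPM, against 63.3 and 72.7 CPM in neuronal classes (1.57, SE 0.07, edgeR adjusted p = 2.93e-42). ALDOA, a glycolytic enzyme, had 174 and 177 CPM, against 52.2 and 61.8 CPM in neuronal classes (1.56, SE 0.07, edgeR adjusted p = 2.51e-39). Among those lower, CA9, a carbonic anhydrase, had 46.7 and 57.0 CPM in astroglia, against 112 and 115 CPM in neuronal classes (-1.10, SE 0.09, edgeR adjusted p = 1.57e-20). NDRG1 was 1.71 lower (edgeR adjusted p = 1.93e-09) and MXI1, a MYC antagonist, 0.94 lower (edgeR adjusted p = 2.51e-18) on the log2 scale.

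Of 8 hypoxia regulators, 3 were higher and 4 lower in astroglia, beside 32.9% and 32.1% of all genes. EGLN3, an oxygen sensor, had 9.69 and 11.9 CPM, against 3.90 and 3.07 CPM in neuronal classes (2.47, SE 0.38, edgeR adjusted p = 1.34e-08). EPAS1 had 1.08 and 2.45 CPM in astroglia, from 7 UMIs in each library, against 0.308 and 0.133 CPM in neuronal classes, from 6 and 1 UMIs (2.0, SE 0.72, edgeR adjusted p = 0.0107). VHL, which marks hypoxia factors for degradation, was 0.72 lower (SE 0.10, edgeR adjusted p = 4.35e-10), and HIF1AN was 0.67 lower (edgeR adjusted p = 0.00430). EGLN1 rose by 0.23 (edgeR adjusted p = 0.0127) and ARNT fell by 0.30 (edgeR adjusted p = 0.00694) on the log2 scale, and these lost their calls under 2 and 3 of 12 alternatives.

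Other VEGF ligands were higher in astroglia as well: of 6 tested genes of that list, 3 were higher and 1 was lower, with a median of 1.07. Of all genes tested, 32.9% were called higher and 32.1% lower. VEGFC had 37.8 and 45.1 CPM in astroglia, against 13.3 and 16.4 CPM in neuronal classes (1.5, SE 0.15, edgeR adjusted p = 1.23e-16). VEGFB had 108 and 111 CPM, against 63.3 and 73.1 CPM in neuronal classes (0.65, SE 0.08, edgeR adjusted p = 2.29e-12). NRP2 was 1.94 higher (SE 0.38, edgeR adjusted p = 4.42e-06). NRP1 was lower, with 8.46 and 20.3 CPM in astroglia, against 104 and 101 CPM in the pooled neuronal classes (-1.39, SE 0.22, edgeR adjusted p = 1.67e-08). This did not hold against each neuronal class: the NRP1 levels of inhibitory neurons given above lay below those of astroglia in both libraries.

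Among TIE partners 3 of 5 tested genes were higher in astroglia and 0 were lower, with a median of 1.40: ITGA5 by 4.35 (SE 0.86, edgeR adjusted p = 4.84e-06; 3 and 0 UMIs in neuronal classes), FOXO1 by 1.81 (SE 0.18, edgeR adjusted p = 1.11e-15) and ITGB1 by 1.40 (SE 0.07, edgeR adjusted p = 5.74e-38). VEGF receptor signal transduction genes were higher for 3 of 19 and lower for 11, with a median of -0.41. For both lists the shares over all genes were 32.9% higher and 32.1% lower. MAPK3 and RAC1 rose by 0.41 and 0.29 on the log2 scale (edgeR adjusted p = 0.0123 and 1.73e-05). SHB, an adaptor of KDR, had 9.53 and 11.9 CPM in astroglia, against 82.9 and 69.5 CPM in neuronal classes (-2.75, SE 0.14, edgeR adjusted p = 3.88e-36). PIK3CA and PIK3R1, subunits of the lipid kinase PI3K, fell by 0.86 and 0.76 on the log2 scale (edgeR adjusted p = 1.36e-14 and 3.57e-07).

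Tip cell and VEGF-induced genes had 4 of 16 higher and 4 lower in astroglia, with a median of -0.14, and stalk, arterial and venous genes had 5 of 12 higher and 1 lower, with a median of 0.40. Over all genes 32.9% were called higher and 32.1% lower, so neither direction of the tip cell list stood above that share. HES1, a Notch target of radial glia, had 253 and 238 CPM in astroglia, against 2.11 and 3.33 CPM in neuronal classes (7.06, SE 0.13, edgeR adjusted p = 2.35e-76), and HEY1 was 4.48 higher (SE 0.20, edgeR adjusted p = 2.72e-40). SPARC, a matrix protein made by glia, had 270 and 256 CPM, against 6.11 and 6.80 CPM in neuronal classes (5.27, SE 0.10, edgeR adjusted p = 8.51e-75). MCAM was 4.23 higher and LAMA4 3.83 higher (edgeR adjusted p = 4.90e-19 and 2.91e-31). NR2F2, a factor of interneurons and veins, was 2.56 lower (SE 0.40, edgeR adjusted p = 1.56e-08), TP53I11 was 2.86 lower and COL4A2 1.63 lower (edgeR adjusted p = 2.02e-12 and 2.11e-06).

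Genes with the most similar pattern were ranked by Pearson's r of log2(CPM + 10) over the means of 8 classes, among 3576 genes, as a description without a test. KDR and TIE1 were nearest to each other (r = 1.0), followed by ROBO4, an endothelial guidance receptor, for both. FLT1 was nearest to ENG, a TGF-beta co-receptor of endothelium (0.998), then EMB and CDH7 (0.998 each). TEK was nearest to MECOM (0.998), a transcription factor, and ABCB1, the efflux pump of brain endothelium (0.996). ANGPT1 was nearest to GPC5 (0.965), GJA1, the astrocyte connexin and a marker of the astroglia gate (0.963), and GDPD2 (0.956). ANGPT2 was nearest to UTRN (0.971), MYO10 (0.967) and COBLL1 (0.965). VEGFA and PGF were not ranked, because the mean of the 2 libraries was below 50 CPM in each of these 8 classes. The highest class means were 35.5 CPM for VEGFA and 23.8 CPM for PGF. These classes did not include mural cells, and their CLDN5-positive cells were those that passed no other gate. The classes share libraries and differ in depth, and values over 8 classes of which 1 is high give large coefficients.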

How the data were processed

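Single-cell libraries were prepared on the Chromium platform from papain-dissociated dorsal cortex of wild-type ferret pups and sequenced on an Illumina HiSeq instrument, per the labels' protocols. The authors deposited 1 matrix of raw UMI counts covering both libraries. Per the submitters' processing notes the tool was Cell Ranger. Which version and which genome were used is not given in the sources used here. Each barcode suffix gives the library but not which labelled replicate it is. Of 29816 gene names, 21317 had a UMI. No reference sequence was used.

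Filtering kept cells in which 500 or more genes were found and no more than 10% of UMIs were mitochondrial (41836475 UMIs in the cells of library A and 18907140 in library B). Cells were classed by marker gates: at least 1 CLDN5 UMI; at least 2 markers for mural cells, microglia and neurons; at least 3 for astroglia; EOMES for intermediate progenitors; PDGFRA with SOX10 for oligodendrocyte precursors; EGFR with OLIG1 for gliogenic progenitors. Other cells that passed more than 1 gate entered no class. Scrublet called 0 doublets in library A and 1 in library B, so the caller did not work here; no doublets were removed in the main analysis, and 485 cells with a score above 0.2 were removed in an alternative.

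UMIs were summed per class and library. The 8 classes with at least 20 cells in each library were fitted together in edgeR 4.0.16 (R 4.3.3; TMM, filterByExpr, quasi-likelihood test, library as a block, 7 residual degrees of freedom), with Benjamini-Hochberg adjustment over all genes tested and a threshold of 0.05. The fit of the 8 classes was tested on simulated sums with known differences, a fixed spread and no library effect. The ANGPT2 split was not part of that test. ANGPT2-positive and ANGPT2-negative cells were fitted on 4 sums with the same library block, which leaves little from which to estimate spread. The library block takes out a shift shared by all classes of a library. P-values measure only the spread between the 2 samples that remains within classes after that shift, and it may be technical. The planned tests with mural cells were not run, because the gate left fewer than 20 cells per library.

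Intervals are exact Poisson for CPM and cover counting error only. Shares were also computed after thinning every cell to 1500 UMIs. Levels used Python 3.11.15, numpy 2.4.6, scipy 1.17.1 and pandas 2.3.3. The genes, lists and classes were chosen with earlier results of these data known. Named genes were the 8 members, up to 3 genes per direction with the largest fold change among those called in each list, and the 3 genes most like each member. For the comparisons of precursors and of neuron types, only the list of other VEGF ligands and receptors is described gene by gene. Alternatives were other gates, thinning, doublet removal, RLE size factors, DESeq2 1.42.0, no low-count filter, no library block, the 2 compared classes alone, and each library alone. Revised gates (at least 3 CLDN5 UMIs; mural cells by at least 3 markers), summed neural classes and cells without mural markers were added after the data were seen. A result for a gene that the naming rule selected is not reported here.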

Additional observations from a re-analysis of the deposited data

How the results depend on the processing

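Alternatives gave 263 values for 22 chosen contrasts of the 8 genes, not for all that were tested. Of these values, 235 kept their direction and their side of the threshold, 3 lost their call, 16 gained one and 9 changed sign. Over 778 alternative values of the named list genes, 738 kept both, 40 lost their call and 0 changed sign. The 4 receptors stayed called in CLDN5-positive against neural cells in every alternative in which they were tested. The number of genes called in CLDN5-positive against neural cells was 1916 and became 4342 with all CLDN5-positive cells, 3600 with stricter gates, 1105 after thinning and 4946 with revised gates. Thinning gave 5470 genes in place of 8374 for astroglia against neuronal cells, 1055 in place of 2529 for oligodendrocyte precursors against astroglia, and 2515 in place of 3836 for inhibitory against excitatory neurons. For ANGPT2-positive against ANGPT2-negative cells, 4 genes became 95 with all CLDN5-positive cells, 18 with revised gates, 1 each with at least 2 CLDN5 UMIs, with 2 other endothelial markers, with stricter gates, after thinning, after doublet removal, without a low-count filter and with revised gates without mural markers, and 0 with DESeq2 (3 at an unadjusted p under 0.05). The cause of these changes was not tested. ANGPT2, which defined its split, was among the 4 genes of the main analysis and was not removed from the other counts of that comparison.

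VEGFA in CLDN5-positive against neural cells had a log2 fold change of 0.073 with all CLDN5-positive cells and 0.061 with revised gates without mural markers, against -0.68 in the main analysis. In ANGPT2-positive against ANGPT2-negative cells, FLT1 became 0.49 with all CLDN5-positive cells, 0.12 with stricter gates, 0.18 with revised gates and 0.17 without mural markers, and KDR became 0.60, 0.57 and 0.27 under the first 3 of these. With each library alone, as values with no test, TEK in inhibitory against excitatory neurons ran from -0.36 to 1.79. Among those of the 22 chosen contrasts that had not passed, VEGFA and KDR changed sign in a single library. VEGFA had 0.20 in CLDN5-positive against neural cells, -0.22 in precursors against astroglia and 0.020 in inhibitory against excitatory neurons. KDR had 0.22 in the ANGPT2 comparison. TEK in CLDN5-positive against neural cells came to 3.76 with library A alone and 6.25 with library B alone. RLE size factors moved the median of all genes in CLDN5-positive against neural cells from -0.11 to 0.03 and the split from 1248 higher and 668 lower (65.1% higher) to 1401 and 382 (78.6% higher); DESeq2 gave 1577 and 281 (84.9% higher).

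The libraries pair the classes, since both classes of each comparison come from the same 2 libraries. With no replicate block the counts were 1855, 7837, 2369, 3219 and 3 for the comparisons in the order given above. Depth limits the receptors in neural classes and the ligands in small classes, where many values rest on fewer than 20 UMIs.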
